A study of Mus musculus with 10 samples.

Results

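Immediate early genes are genes that neurons switch on within minutes of strong synaptic activity, without needing new protein; they are described here together with Bdnf, a growth factor gene that follows them. The members were 10 genes given by symbol, Fos, Fosb, Junb, Egr1, Arc, Npas4, Nr4a1, Nr4a2, Nr4a3 and Bdnf, and all 10 were found once each among the 78317 genes of the deposited table. Expression was measured by RNA sequencing of poly(A) RNA from punches of mouse medial prefrontal cortex. The tested mice had received an adeno-associated virus (AAV) for overexpression of miR-130a-3p (5 libraries, numbered 13, 14, 15, 17 and 18), and the control mice a control AAV (5 libraries, numbered 3, 4, 5, 7 and 9). All animals were labelled wild type, and the tissue was labelled as mixed cell types. The AAV serotype, its promoter, the cells it reached, the age and sex of the mice, the delay after injection and the handling before tissue was taken are not given in the sources used here. The labels do not say whether each library is a separate mouse, and the p-values are about the variation among these libraries, which may be technical.

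As background, calcium entry through NMDA receptors and voltage-gated channels activates kinases that act on CREB and on partners of SRF, transcription factors already bound at these promoters. The first wave makes mostly transcription factors: FOS, FOSB and JUNB pair as AP-1, EGR1 is a zinc finger protein, NPAS4 is a neuron-specific factor driven by calcium, and NR4A1, NR4A2 and NR4A3 are orphan nuclear receptors. Arc is the exception, since its protein acts at the synapse, where it promotes removal of AMPA receptors. Bdnf encodes brain-derived neurotrophic factor, which signals through the receptor TrkB and supports synaptic strengthening. Because the transcripts decay quickly, their level in cortex also follows what the animal experienced shortly before death.

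The overexpressed microRNA and the promoter letters of the members are shown first, because they are what the design and the inducing pathway act on. The mature sequence is credited to RefSeq (GRCm38.p6, chromosome 2, minus strand, chr2:84741116-84741137), with its seed, bases 2 to 8, in capitals.
mmu-miR-130a-3p: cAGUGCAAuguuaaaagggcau
The letters that pair with the seed, TTGCACT and, shifted by a base, TGCACTA, as well as both together as TTGCACTA, were searched in the longest annotated 3′ untranslated region of each gene (GENCODE M21). These regions were between 485 bases (Junb) and 3095 bases (Nr4a3) long in the members, with 2855 bases in Bdnf. 0 of the 10 members held a match, whereas 16% of the 13275 tested genes with such a region held at least 1. No match says only that these letters are not in these windows. Mir130a itself was listed at 0 TPM in all 10 libraries, so the overexpression cannot be checked in this table.

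The CRE core TGACG, part of the letters that CREB binds, was searched on both strands in RefSeq promoter windows of 250 bases before to 50 after each start. Of the 10 members, 8 had such a window, Egr1 and Arc being the others, and Bdnf had 7 windows for its several starts. The core was in 8 of the 14 member windows, 1 for each of the 8 genes, and in 20.8% of the 32851 windows of the table; of the 7 Bdnf windows 1 held it. Nr4a1, Nr4a2 and Nr4a3 each held 4, a number reached by 0.231% of windows. The stretches below are from GRCm38.p6, read 5′ to 3′ on the gene's strand, with the core (TGACG, which reads as CGTCA where it lies on the opposite strand) in capitals. The NR4A genes are shown because of that number, and Fos and Bdnf for comparison.
Nr4a1 (plus strand, chr15:101266611-101266640): tgCGTCAatggaaccccgcgtgCGTCAcgc
Nr4a2 (minus strand, chr2:57124097-57124126): TGACGgggccgcTGACGcgcttggccgcgg
Nr4a3 (plus strand, chr4:48045088-48045117): atgtCGTCAcatTGACGtctcgcattccag
Fos (plus strand, chr12:85473812-85473841): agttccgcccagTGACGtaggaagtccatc
Bdnf (plus strand, chr2:109692389-109692418): tatgacagctcaCGTCAaggcagcgtggag
The full palindrome TGACGTCA, which contains the core, was in 0 of the 8 members and in 1.79% of all windows. The AP-1 letters TGACTCA were in 0 of the 8 members (5.2% of all windows), the CArG box of SRF in 0 (1.63%), an EGR site, spelled GCGTGGGCG or else GCGGGGGCG, in 2 (Fosb and Nr4a1; 3.47%), and TATAAA in 3 (Fos, Junb and Nr4a2; 13.6%). The shares are of windows, and of the 14 member windows 2 held the EGR site and 3 held TATAAA. A match is a description of letters and shows no binding. An absent match covers only these windows, which start 250 bases before each start and are missing for Egr1 and Arc.

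Cell type markers differed between the groups, and 3 libraries stood apart. The excitatory marker Slc17a7, a vesicular glutamate transporter, lay between 750 and 1501 TPM and the cortical transcription factor Neurod6 between 61.9 and 116 TPM over all libraries, so these cortical neuron markers were present. Markers of microglia, the brain's resident macrophages, summed over 12 genes, lay between 802 and 1182 TPM in miR-130a and between 2081 and 4664 TPM in control libraries, and 11 of the 12 were called lower. No gene of that list was at 0. The sum of 10 excitatory markers lay between 2603 and 3649 TPM in miR-130a and between 2463 and 4709 TPM in control libraries, and 0 of the 10 were called. The sum of 9 inhibitory markers lay between 1463 and 1828 against 1019 and 1373 TPM. Of the 9, 2 were called higher, the peptide genes Sst and Vip. Most of the difference in the sum was in Sst, with means of 1065 against 645 TPM, where the mean sums were 1666 and 1207 TPM. Of the other markers, 5 of 7 endothelial, 3 of 6 mural, 1 of 10 astrocyte (Gfap) and 1 of 6 striatal genes (Adora2a) were called lower, and 0 of 8 oligodendrocyte and 0 of 5 precursor genes were called (2 of each lower at an unadjusted p under 0.05, by limma). Among all 15680 tested genes, 4455 had an unadjusted limma p under 0.05 in either direction, and 11.3% were called lower and 2.19% higher. Mitochondrially encoded genes took 16.02% to 19.9% of TPM in miR-130a and 13.04% to 16.4% in control libraries. Control libraries 7 and 9 lay farthest out on the first principal component, at −46.7 and −62.9 with the remaining controls from −17.6 to −3.36, and miR-130a library 14 stood apart in the members themselves. In tissue, fewer cells of a type and less RNA per cell cannot be told apart.

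Of the 10 members, Nr4a3 and Bdnf rose in the miR-130a group, 0 fell, and 8 did not pass the test (0 were lower and 2 higher at an unadjusted p under 0.05). The test was limma on log2(TPM + 1) over 15680 genes, with Benjamini-Hochberg adjusted p under 0.05 as the threshold. All fold changes below are on the log2(TPM + 1) scale. Of the 15680 genes, 4455 had an unadjusted limma p under 0.05, both directions together. Over all tested genes, 2.19% were called higher and 11.3% lower, 343 and 1767 genes; median-ratio scaling gave 862 and 1192 and quantile normalization 1071 and 1046. All 10 members had a fold change above 0, with a median of 0.28, where the median of all tested genes was −0.09 and 5707 of 15680 were above 0. Without miR-130a library 14, 7 of the 10 were above 0 with a median of 0.105, and Fosb, Junb and Arc were below 0. The median of the 10 was 0.438 without control library 7 and 0.18 relative to neuronal markers. For Nr4a3 and Bdnf every miR-130a value was above every control value, and for the other 8 the ranges overlapped. Over all tested genes, 1.85% had such separation with miR-130a above and 9.46% with miR-130a below. That Nr4a3 and Bdnf passed and the others did not was not tested as a difference between genes.

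Nr4a3, the nuclear receptor also called NOR-1, was at 7.55, 15.5, 11.7, 7.52 and 8.70 TPM in miR-130a libraries 13, 14, 15, 17 and 18. In control libraries 3, 4, 5, 7 and 9 it was at 5.09, 5.80, 6.57, 5.28 and 6.65 TPM. Every miR-130a library lay above every control, with libraries 14 and 15 highest and the controls within a narrow band. The means were 10.2 ± 3.43 TPM in miR-130a and 5.88 ± 0.718 TPM in control libraries (SD, n = 5 each), a log2 fold change of 0.66 (95% interval 0.26 to 1.06, limma adjusted p = 0.0338). The exact permutation test over libraries, 2-sided, gave p = 0.00794, the smallest its 252 arrangements allow. An unnamed gene annotated as antisense to Nr4a3 was at 5.08 TPM in library 14 and listed at 0 in the other 9 libraries. The library kit marks strand, but whether the counting used it is not given in the sources used here, so the reads of the pair may not be fully separated in that library; both genes antisense to Nr4a1 were between 0 and 1.23 TPM.

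Bdnf was at 13.3, 16.4, 18.0, 12.6 and 11.99 TPM in miR-130a libraries 13, 14, 15, 17 and 18. Control libraries 3, 4, 5, 7 and 9 had 11.6, 9.22, 10.2, 10.3 and 8.30 TPM. Again every miR-130a library was above every control, although library 18 exceeded control library 3 by little. The means were 14.4 ± 2.61 TPM in miR-130a and 9.93 ± 1.24 TPM in control libraries (SD, n = 5 each), a log2 fold change of 0.49 (95% interval 0.21 to 0.78, limma adjusted p = 0.0288; exact permutation p = 0.00794, the smallest possible). The gene-level value sums all Bdnf transcripts, so which of its promoters differed cannot be read from it.

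Both calls were close to the threshold. Nr4a3 and Bdnf each kept an adjusted p under 0.05 in 5 of 10 fits that left out 1 library. Nr4a3 was lost without miR-130a library 14 or 15 or control library 3, 4 or 7, with limma adjusted p between 0.0608 and 0.0817. Bdnf was lost without miR-130a library 13, 14 or 15 or control library 4 or 7, with limma adjusted p between 0.0540 and 0.0781. Relative to 19 neuronal markers, the differences were 0.56 for Nr4a3 and 0.39 for Bdnf (limma adjusted p = 0.0794 and 0.0662). The 19 were the 10 excitatory and 9 inhibitory markers, with median log2 fold changes of −0.01 and 0.19. Sst and Vip, called higher, are among them, and their part in this scaling was not tested. The scaling factor from these markers was 0.721 in control library 9 and between 0.960 and 1.121 in the other libraries. Testing all 36601 genes with any value also ended both calls (limma adjusted p = 0.0897 and 0.0675). Without control libraries 7 and 9, the differences were 0.67 and 0.43 (limma adjusted p = 0.0640 and 0.0711). Scaling moved the calls in both directions. Median-ratio scaling gave 0.76 for Nr4a3 and 0.60 for Bdnf (limma adjusted p = 0.0203 and 0.0082). Quantile normalization gave 0.85 and 0.66 (limma adjusted p = 0.0115 and 0.0060). The fold changes kept their sign in all 24 alternative fits, between 0.51 and 0.85 for Nr4a3 and between 0.39 and 0.66 for Bdnf.

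**Figure D1:**
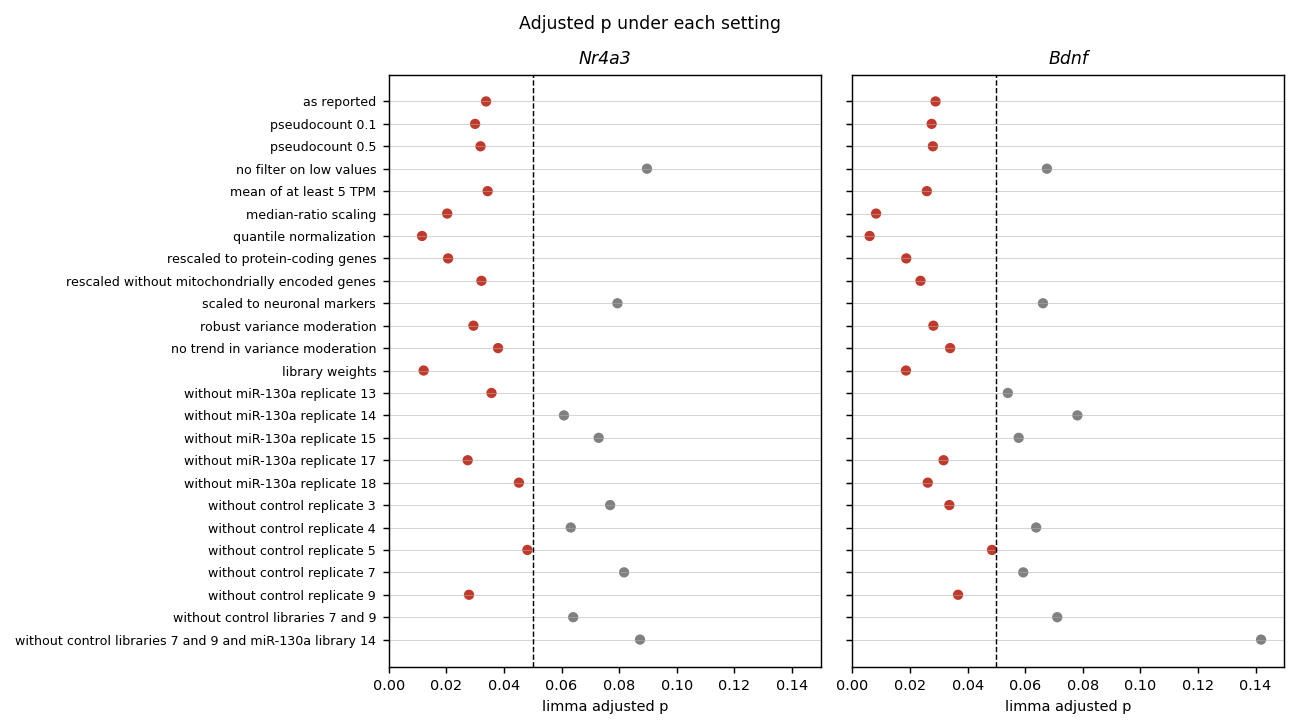
Limma adjusted p of Nr4a3 (left) and Bdnf (right) under each setting, 1 row per setting, with the threshold of 0.05 as a dashed line and calls under it in red. Both genes lie on either side of the line, 15 of 24 alternative settings under it for each gene.

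**Figure D2:**
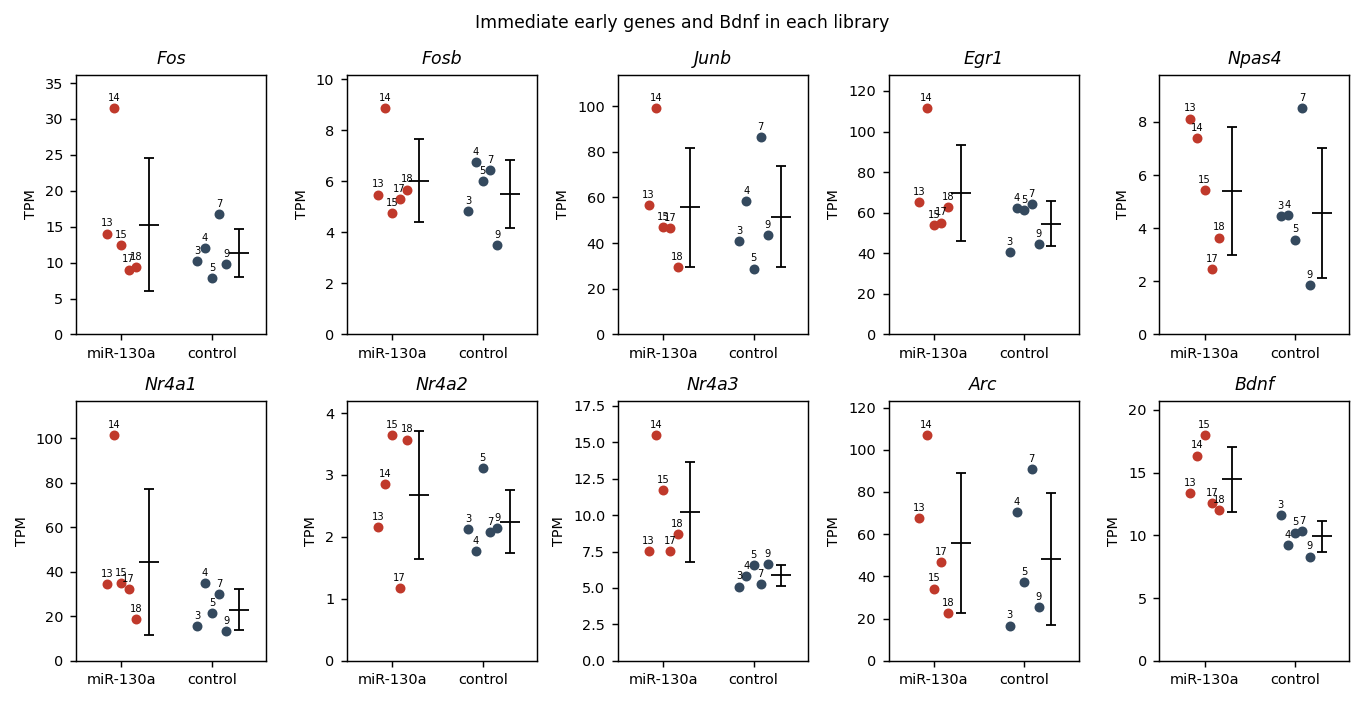
TPM of each member in each library, numbered as in the labels, with miR-130a libraries in red and control libraries in dark blue; the bars are mean ± SD (n = 5). Nr4a3 and Bdnf show no overlap between the groups, while library 14 lies far above the other miR-130a libraries for Fos, Fosb, Egr1 and Nr4a1.

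Among the AP-1 genes, Fos was at 14.04, 31.5, 12.5, 9.04 and 9.43 TPM in miR-130a libraries 13, 14, 15, 17 and 18. In control libraries 3, 4, 5, 7 and 9 it was at 10.2, 12.01, 7.85, 16.7 and 9.78 TPM. Apart from library 14 the groups covered the same range. The log2 fold change was 0.30 with a 95% interval of −0.35 to 0.95 (limma adjusted p = 0.564). Fosb, whose truncated form ΔFosB builds up with repeated stimulation, lay between 4.76 and 8.86 TPM in miR-130a and between 3.51 and 6.75 TPM in control libraries. Its difference was 0.11 with an interval of −0.29 to 0.51 (limma adjusted p = 0.750). Junb, a partner of FOS proteins, lay between 29.3 and 99.0 TPM in miR-130a and between 28.8 and 86.3 TPM in control libraries, with the highest values in libraries 14 and 7. Its difference was 0.09 with an interval of −0.61 to 0.79 (limma adjusted p = 0.891).

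Egr1, which activates genes of synaptic plasticity and is a common marker of active neurons, was the most abundant member at 62.2 ± 19.3 TPM over all libraries (SD, n = 10). It was at 65.2, 111, 54.0, 55.2 and 62.9 TPM in miR-130a libraries 13, 14, 15, 17 and 18. In control libraries 3, 4, 5, 7 and 9 it was at 40.4, 62.3, 61.4, 64.4 and 44.6 TPM. Library 14 was the only miR-130a library far above the controls. The difference was 0.32 with an interval of −0.13 to 0.76 (limma adjusted p = 0.339). Npas4, which shapes inhibitory synapses onto active neurons, lay between 2.46 and 8.13 TPM in miR-130a and between 1.85 and 8.51 TPM in control libraries. Its highest value was in control library 7 and its lowest in control library 9, and the difference was 0.22 with an interval of −0.50 to 0.94 (limma adjusted p = 0.716).

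The 3 orphan nuclear receptors share a DNA-binding and a ligand-binding fold, annotated as zf-C4 and Hormone_recep in the deposited table, but their values differed. Nr4a1, also called Nur77, had the largest fold change of the members and did not pass. It was at 34.4, 102, 35.1, 32.2 and 18.7 TPM in miR-130a libraries 13, 14, 15, 17 and 18, and at 15.5, 34.96, 21.6, 29.9 and 13.3 TPM in control libraries 3, 4, 5, 7 and 9. Library 14 was far above the rest, and without it the miR-130a mean was 30.1 ± 7.70 TPM (SD, n = 4) against 23.0 TPM in control libraries. The difference was 0.77 with an interval of −0.08 to 1.62 (limma adjusted p = 0.223), and 0.42 without library 14 (limma adjusted p = 0.418). Nr4a2, also called Nurr1 and known for its role in dopamine neurons, was the least abundant member, between 1.17 and 3.65 TPM in miR-130a and between 1.77 and 3.11 TPM in control libraries. Both its lowest and its highest value were in the miR-130a group, and its difference was 0.14 with an interval of −0.33 to 0.61 (limma adjusted p = 0.721).

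Arc was at 67.6, 107, 34.2, 46.9 and 22.8 TPM in miR-130a libraries 13, 14, 15, 17 and 18. Control libraries 3, 4, 5, 7 and 9 had 16.7, 70.6, 37.2, 90.9 and 25.6 TPM. The libraries of each group spread from low to high and the groups overlapped almost completely. Arc had the largest spread in the control group, a coefficient of variation of 65.2%, where Nr4a3 and Bdnf had 12.2% and 12.5%. The difference was 0.27 with an interval of −0.79 to 1.32 (limma adjusted p = 0.771). A 2-fold rise in Arc is inside this interval and a 2-fold fall is outside it.

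**Figure D3:**
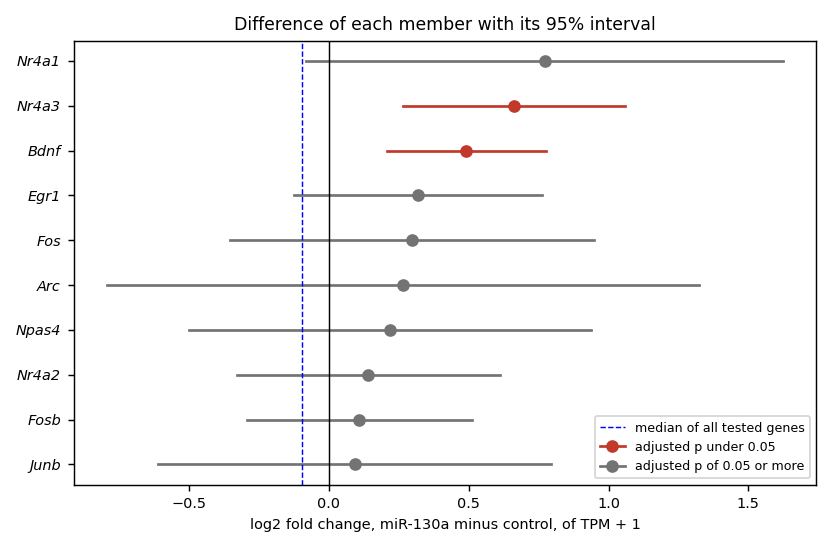
Log2 fold change of each member, miR-130a minus control, on log2(TPM + 1), with its 95% interval from limma (n = 5 each). The intervals of Nr4a3 and Bdnf (red) lie above 0 and the other 8 (grey) include 0; the dashed line is the median of all tested genes, −0.09.

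The levels over all 10 libraries ran from Egr1 at 62.2 ± 19.3, Junb at 53.6 ± 22.9 and Arc at 52.0 ± 30.7 TPM through Nr4a1 at 33.7 ± 25.3, Fos at 13.3 ± 6.91, Bdnf at 12.2 ± 3.06 and Nr4a3 at 8.04 ± 3.27 to Fosb at 5.76 ± 1.43, Npas4 at 4.996 ± 2.33 and Nr4a2 at 2.46 ± 0.803 TPM (SD, n = 10). TPM is scaled by transcript length, so this order compares levels between genes. Neighbours in this order differed by less than the larger of their SDs, except Bdnf from Nr4a3 and Npas4 from Nr4a2.

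Within each group, several members were high or low in the same libraries. MiR-130a library 14 held the highest value of all 10 libraries for 7 of the members, library 15 for 2 (Nr4a2 and Bdnf) and control library 7 for 1 (Npas4). Within the control group, library 7 was highest for 5 members and library 9 lowest for 4. Averaged over the 10 members, the deviation of log2 values from the gene mean was 0.89 in library 14, where the other miR-130a libraries lay between −0.22 and 0.21. In control libraries 3, 4, 5, 7 and 9 it was −0.41, 0.04, −0.23, 0.25 and −0.50. Library 14 had the lowest sum of microglial markers of all libraries, 802 TPM, and library 9 the highest, 4664 TPM, together with the lowest sums of excitatory and inhibitory markers. The sums of oligodendrocyte, oligodendrocyte precursor and mural markers were also lowest in library 14, at 1320, 103 and 113 TPM. Those of astrocyte, endothelial and mural markers were highest in library 9. The part of these markers in the spread of the members was not tested.

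Of 45 pairs of members, 42 had a positive correlation across the 10 libraries after each group's mean was subtracted. The median Pearson r of the 45 pairs was 0.55, with a range of −0.29 to 0.91. That median was 0.355 without library 14. It was 0.118, with a range of −0.602 to 0.92, without the 2 libraries farthest from the median of each pair's first gene. Nr4a2 was positive in 6 of its 9 pairs. The 21 pairs among Fos, Fosb, Junb, Egr1, Arc, Npas4 and Nr4a1 were all positive, with a median of 0.73 and a range of 0.54 to 0.91. That set was not planned and leaves out Nr4a2, Nr4a3 and Bdnf, so its higher median depends on this choice and was not tested. Without library 14 the median of the 21 pairs was 0.64. Without the 2 libraries farthest from the median of each pair's first gene it was 0.61 with a range of −0.02 to 0.92. Fos and Junb were the 1 pair that passed adjustment over the 45 pairs, with r = 0.91 (permutation p = 0.000417, adjusted 0.0188) and Spearman's rho = 0.83 (permutation p = 0.0075, adjusted 0.0745), and r = 0.78 without the 2 farthest libraries. No pair passed by rho. The median r with the other members was 0.47 for Nr4a3 and 0.39 for Bdnf, and without the 2 farthest libraries −0.02 and 0.06, a step that also narrows the range of values. Without library 14 alone it was 0.01 for Nr4a3 and 0.30 for Bdnf.

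**Figure D4:**
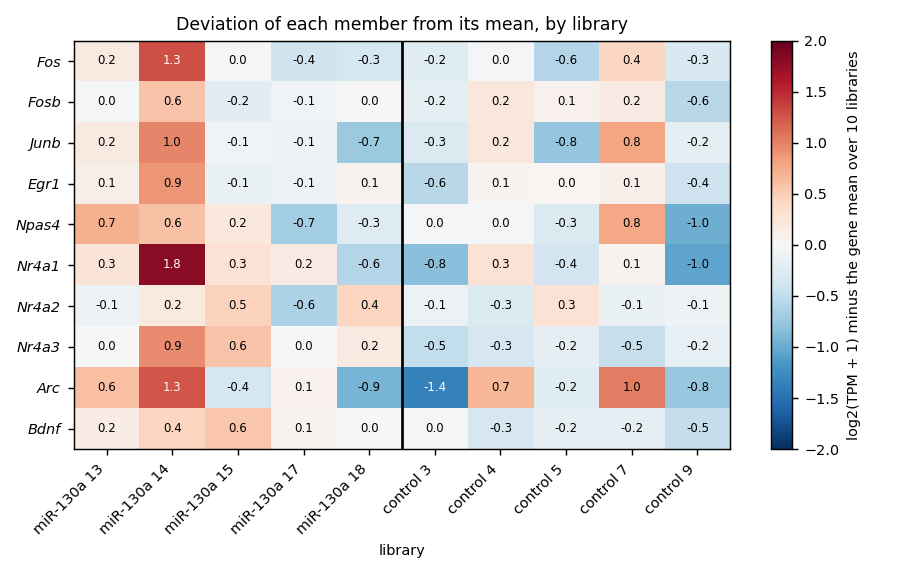
Deviation of log2(TPM + 1) of each member (rows) from its mean over the 10 libraries (columns, miR-130a left of the line, control right), in log2 units with red above and blue below the mean. Library 14 is above the mean for all members, and within the controls library 7 is mostly above and libraries 3 and 9 mostly below.

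The genes whose pattern across libraries was most like that of the members, among 10443 other named genes with a mean of at least 5 TPM, were Nab2, Dusp6, Dusp5, Arl4d, Bhlhe40 and Midn. The measure was Pearson r over 10 libraries with the mean of the members, after each group's mean was subtracted, and it lay between 0.88 and 0.91. Without library 14 it lay between 0.78 and 0.89. These genes were picked for that likeness, so r has no test. NAB2 is a corepressor of EGR proteins, DUSP5 and DUSP6 are phosphatases that switch off ERK kinases, and BHLHE40 is a transcriptional repressor linked to the circadian clock. None of the 6 passed the group comparison: Bhlhe40, with the largest difference, had 74.6 ± 11.7 TPM in miR-130a and 62.6 ± 9.41 TPM in control libraries (SD, n = 5 each; limma adjusted p = 0.237), and Dusp6 had 32.2 ± 11.7 and 31.7 ± 5.06 TPM (limma adjusted p = 0.940).

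Other genes of the rapid response either fell or did not pass. Of 28 listed, 27 were tested, and 7 were lower, 0 higher and 20 did not pass, where 11.3% of all tested genes were called lower. At an unadjusted limma p under 0.05, 13 of the 27 were lower and 0 higher. Of all 15680 tested genes 4455 passed, both directions together, so this total gives no share for the lower direction alone. The median log2 fold change of the 27 was −0.30, against −0.09 for all tested genes. Jun, the AP-1 partner whose gene is also induced by injury and stress, had 18.4, 20.6, 20.9, 18.4 and 23.9 TPM in miR-130a libraries 13, 14, 15, 17 and 18, and 37.3, 35.6, 34.9, 38.0 and 26.4 TPM in control libraries 3, 4, 5, 7 and 9. Every miR-130a library was below every control, and library 14, highest for most members, was not high for Jun. The log2 fold change was −0.72 (SE 0.117, limma adjusted p = 0.00312) and stayed called in all 24 alternative fits. Maff, a small MAF protein, and Zfp36, which destabilises cytokine mRNAs, fell to 1.04 ± 0.242 and 1.81 ± 0.474 TPM in miR-130a libraries, against 2.62 ± 0.533 and 4.56 ± 1.55 TPM in control libraries (SD, n = 5 each; limma adjusted p = 0.00574 and 0.0102).

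The other 4 lower genes were the stress-induced factor Atf3, the Krüppel-like factors Klf2 and Klf4, and Cebpb, a factor of inflammatory gene expression. Atf3 was at 1.74 ± 1.10 TPM in miR-130a and 6.42 ± 2.81 TPM in control libraries (SD, n = 5 each; limma adjusted p = 0.0145), but 0.0591 without control libraries 7 and 9. The calls of Klf2, Klf4 and Cebpb, with limma adjusted p between 0.0232 and 0.0336, were lost in 5 of 24, 9 of 23 and 12 of 24 alternative fits. Without control libraries 7 and 9, 4 of the list were lower, and 3 when library 14 was left out as well. Relatives of Egr1 in the list, named after their values were seen, did not pass: Egr3 was at 78.7 ± 17.8 TPM in miR-130a and 86.2 ± 30.3 TPM in control libraries (limma adjusted p = 0.880), and Egr4 at 19.8 ± 6.10 and 18.8 ± 6.93 TPM (limma adjusted p = 0.843; SD, n = 5 each). The lower genes are also expressed by microglia or endothelial cells, whose markers were lower in the same libraries (11 of 12 microglial and 5 of 7 endothelial genes called). The part of these cells in the 7 calls was not tested.

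Of 12 feedback regulators induced by activity, 1 was higher, 1 lower and 10 did not pass (median −0.03). The shares over all tested genes were 2.19% called higher and 11.3% called lower. Rgs2, which limits G protein signalling, had 31.9, 31.4, 42.6, 30.3 and 25.7 TPM in miR-130a libraries 13, 14, 15, 17 and 18, and 22.4, 19.7, 21.9, 24.3 and 24.2 TPM in control libraries 3, 4, 5, 7 and 9. The groups did not overlap, and the log2 fold change was 0.49 (SE 0.125, limma adjusted p = 0.0236). The call of Rgs2 was lost in 7 of 24 alternative fits, among them scaling to neuronal markers (limma adjusted p = 0.132). Dusp2, a phosphatase best known from immune cells, was at 0.922 ± 0.447 TPM in miR-130a and 2.21 ± 0.728 TPM in control libraries (SD, n = 5 each; limma adjusted p = 0.0326) and was lost in 11 of 23 fits. Dusp1 was at 28.0 ± 9.92 TPM in miR-130a and 21.7 ± 8.71 TPM in control libraries (limma adjusted p = 0.445).

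Of 16 tested late response effector genes, the group in which Bdnf is usually placed, 2 were higher, 0 lower and 14 did not pass. The shares of all tested genes were 2.19% called higher and 11.3% called lower. The median of the list was 0.11 and 13 of its 16 genes were above 0. Syt4, a synaptotagmin found on BDNF-containing vesicles, was at 121 ± 12.97 TPM in miR-130a and 90.5 ± 10.2 TPM in control libraries (SD, n = 5 each; log2 fold change 0.42, limma adjusted p = 0.0218). Ptgs2, the inducible cyclooxygenase, was at 6.47 ± 0.914 and 4.55 ± 0.580 TPM (0.43, limma adjusted p = 0.0395). For both genes every miR-130a library was above every control. Ptgs2 was lost in 13 of 24 alternative fits and Syt4 in 6, and both were lost without control libraries 7 and 9 (limma adjusted p = 0.0608 and 0.0590), when 0 genes of the list were called. Scg2, a secretogranin of dense-core vesicles, was at 152 ± 13.2 TPM in miR-130a and 113 ± 23.6 TPM in control libraries, without passing (limma adjusted p = 0.0540).

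Around Bdnf, the neurotrophin list had 14 tested genes, of which 2 were lower, 0 higher and 12 did not pass (median −0.16). Calls over all tested genes were 11.3% lower and 2.19% higher. Plat, tissue plasminogen activator, starts the cascade that cleaves proBDNF outside the cell. It had 14.3, 16.7, 19.1, 15.2 and 16.4 TPM in miR-130a libraries 13, 14, 15, 17 and 18, and 21.5, 23.9, 21.4, 27.8 and 24.1 TPM in control libraries 3, 4, 5, 7 and 9, without overlap. Its log2 fold change was −0.51 (SE 0.104, limma adjusted p = 0.00861), and the call was lost in 1 of 24 alternative fits. Furin, the protease that cleaves proBDNF inside the cell, was at 12.4 ± 1.154 TPM in miR-130a and 16.6 ± 2.10 TPM in control libraries (SD, n = 5 each; limma adjusted p = 0.0371); it was lost in 11 of 24 fits, median-ratio and quantile scaling among them. The BDNF receptor gene Ntrk2 was at 147 ± 9.67 and 165 ± 18.2 TPM (limma adjusted p = 0.298) and the proneurotrophin receptor genes Sort1 and Ngfr at 112 ± 16.4 and 147 ± 30.7 TPM and at 1.64 ± 0.688 and 1.25 ± 0.246 TPM, all without passing; these 3 were named after their values were seen. Ntf3, the gene of neurotrophin-3, was at 1.35 ± 0.259 TPM in miR-130a and 0.672 ± 0.464 TPM in control libraries (SD, n = 5 each; limma adjusted p = 0.118). Plat is also made by endothelial cells, of which 5 of 7 markers were lower, and their part in its call was not tested.

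Of 27 genes that carry activity to the nucleus (CREB and its coactivators, SRF partners, MEF2 factors, calcium-dependent kinases and phosphatases), 0 were called in either direction by limma, where 4 were lower and 1 higher at an unadjusted p under 0.05. The lowest p were those of Elk1, an SRF partner, the CREB coactivator gene Crtc2 and the kinase gene Camkk1, all with fold changes below 0 (limma adjusted p = 0.0510, 0.0640 and 0.121). The median was −0.16. Of all 15680 tested genes, 4455 had an unadjusted limma p under 0.05, both directions together, and 11.3% were called lower and 2.19% higher. In fits that left out 1 library, between 0 and 10 of the 27 were called lower.

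**Figure D5:**
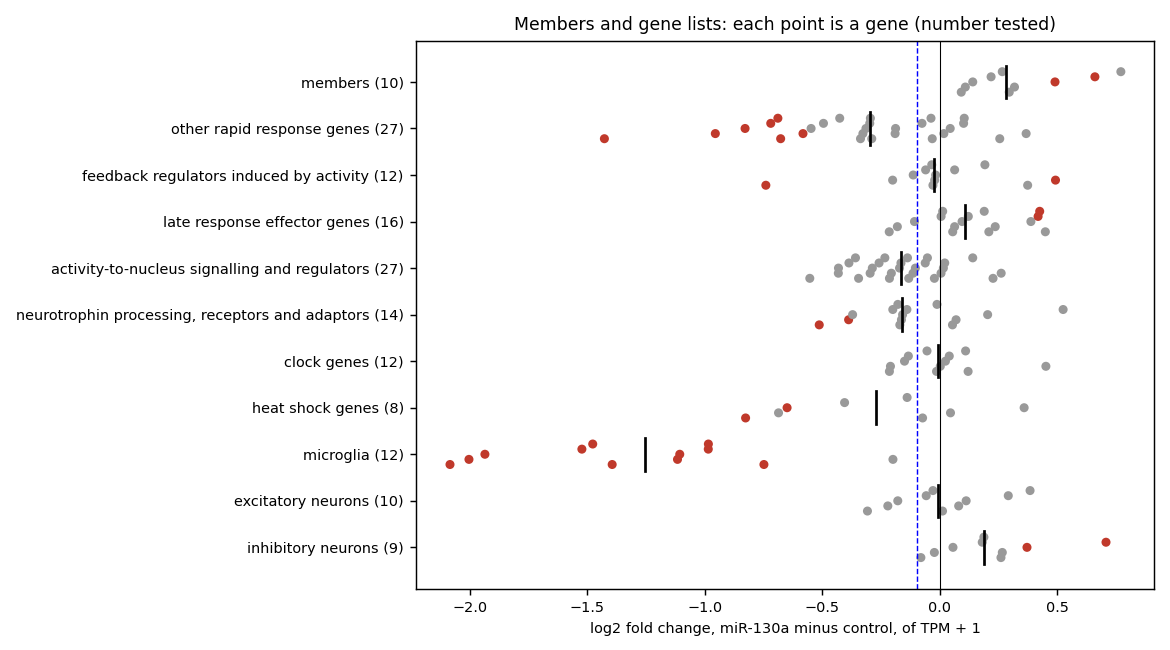
Log2 fold change, miR-130a minus control, of each tested gene in the members and in 10 gene lists (numbers tested in brackets), with called genes in red, other genes in grey, list medians as black bars and the median of all tested genes as a dashed line. The members lie right of 0, with Nr4a3 and Bdnf called, while 7 of the other rapid response genes and 11 of 12 microglial markers are called left of 0.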

How the data were processed

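Poly(A) RNA was sequenced from 10 libraries of mouse medial prefrontal cortex. The authors deposited TPM per gene and library; fastp, HISAT2, RSEM and DESeq2 with genome build GRCm39 are named in the submitters' processing notes, without versions or roles. TPM keeps no depth, so depth is unknown and no count model was used. The 2 deposited columns of group means were not used.

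Values were analysed as log2(TPM + 1), which understates changes of weakly expressed genes. Of 78317 genes, 15680 with a mean of at least 1 TPM were tested with limma 3.58.1 (trend, R 4.3.3), 5 against 5 libraries, with Benjamini-Hochberg adjustment over all tested genes, after a check on simulated data. Single members were also compared by exact permutation over libraries. Correlations used 14400 permutations within groups. The labels name no batch; miR-130a libraries are numbered after all controls, so processing order cannot be told apart from the group.

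The members and the 16 gene lists were chosen with earlier results of these data known. Named genes were the members, those with the 3 lowest p of each list and the 6 genes most like the members; Atf3, Klf2, Klf4 and Cebpb (called), and Egr3, Egr4, Ntrk2, Sort1 and Ngfr (not called), were added after their values were seen, and most marker genes are given by list only. Alternatives changed the pseudocount, filter, scaling, variance moderation, library weights and libraries. Sequences came from RefSeq (GRCm38.p6) and GENCODE M21, a build other than that of the values. Python 3.11.15 and matplotlib 3.10.9 drew the figures.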

Additional observations from a re-analysis of the deposited data

Results flagged for a closer look

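In groups of 5 libraries, a value was picked out when its gap to the nearest other value exceeded 0.71 of the group's range (Dixon's 95% critical value); chance gives this in about 5% of groups. Of 62 groups examined (the members and the named genes of the pathway lists), 8 were picked out, 5 of them in the members and 4 in miR-130a library 14.

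MiR-130a library 14 was far above the other miR-130a libraries for Fos (31.5 TPM, others 9.04 to 14.04), Fosb (8.86 TPM, others 4.76 to 5.68), Egr1 (111 TPM, others 54.0 to 65.2) and Nr4a1 (102 TPM, others 18.7 to 35.1). Without it, the miR-130a means over the other 4 libraries were 0.994 times the control mean for Fos, 0.964 times for Fosb, 1.09 times for Egr1 and 1.31 times for Nr4a1. What set this library apart was not tested. Nr4a2 was at 3.11 TPM in control library 5, with the other controls between 1.77 and 2.14 TPM.

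Outside the members, Dusp2 was at 1.71 TPM in miR-130a library 15 (others 0.65 to 0.82), Jun at 26.4 TPM in control library 9 (others 34.9 to 38.0) and Maff at 3.55 TPM in control library 7 (others 2.19 to 2.49).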

How the results depend on the processing

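No paired analysis was possible because the groups share no replicate numbers. Of the 10 members, 2 were called higher and 0 lower as reported, and 0 were called lower in every alternative fit. The count of higher members was 2 or fewer: 0 with no filter on low values, with scaling to neuronal markers, without control libraries 7 and 9, and without these and miR-130a library 14 (an alternative added after seeing the data), and between 0 and 2 in the fits that left out 1 library.

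Counts over all tested genes, 343 higher and 1767 lower as reported, moved more. No filter gave 178 and 1124, quantile normalization 1071 and 1046, scaling to neuronal markers 107 and 3049, and library weights 696 and 3144. Median-ratio scaling gave 862 and 1192, and leaving out control libraries 7 and 9 with miR-130a library 14 gave 225 higher. Leaving out 1 library gave 140 to 503 higher and 1088 to 2910 lower. The causes were not tested. Over all tested genes the log2 fold change had a median of −0.09 as deposited, 0.0082 with median-ratio scaling, 0.05 with quantile normalization and −0.19 relative to neuronal markers.

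Signs turned only in members that did not pass: Junb to −0.0129 relative to neuronal markers, Fosb to −0.11 without libraries 7, 9 and 14, and, over fits without 1 library, Fosb between −0.0202 and 0.179, Junb between −0.14 and 0.30, and Arc between −0.0389 and 0.556. The exact permutation p of Nr4a3 and Bdnf is unadjusted and the smallest possible, so it restates only that their groups do not overlap. TPM gives no depth, so whether low members such as Nr4a2 and Npas4 were limited by counting is unknown.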

Other observations

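Heat shock genes, read as a sign of cell stress, were listed beside the members. Of 8 tested, 2 were lower, 0 higher and 6 did not pass, where 11.3% of all tested genes were called lower and 2.19% higher. Bag3, a chaperone partner, was at 4.59 ± 0.986 TPM in miR-130a and 8.82 ± 1.05 TPM in control libraries, and the small chaperone gene Hspb1 at 13.2 ± 0.911 and 21.6 ± 4.17 TPM (SD, n = 5 each; limma adjusted p = 0.00394 and 0.00691). Both stayed called in all 24 alternative fits. Hspa1b, an inducible HSP70 gene with a near-identical copy, was at 5.18 ± 1.52 TPM in miR-130a and 9.10 ± 2.89 TPM in control libraries, without passing (limma adjusted p = 0.0708).

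Clock genes, which change with the time of day of tissue collection, gave 0 calls by limma in 12 tested. At an unadjusted limma p under 0.05 there were 0 of them, against 4455 of all 15680 tested genes. The median log2 fold change of the clock genes was −0.01. Per2, which is also induced by activity, had the lowest p at 6.58 ± 2.91 TPM in miR-130a and 4.31 ± 0.635 TPM in control libraries (SD, n = 5 each; limma adjusted p = 0.184, and 0.0662 at the lowest over the alternatives). Tef and Cry1, which came next, had limma adjusted p of 0.290 and 0.465.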
